A study of Mus musculus with 6 samples.

Results

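The expression of 10 genes of transforming growth factor beta (TGF-beta) signalling was followed in the choroid plexus of aged and young mice: the ligands Tgfb1, Tgfb2 and Tgfb3, the receptors Tgfbr1, Tgfbr2 and Tgfbr3, the intracellular Smad proteins Smad3 and Smad7, and the ligand handlers Ltbp1 and Thbs1. They were taken by gene symbol from a table of 25206 probe sets, and each of the 10 symbols matched 1 probe set, which gathers the array probes of 1 Entrez gene. The choroid plexus lies in the ventricles of the brain, where its epithelium over a vascular stroma makes the cerebrospinal fluid. It came from C57BL/6J mice of 20 to 22 months (aged, 3 mice) and of 2 to 3 months (young, 3 mice), with 1 expression array for each mouse, and the study set the older tissue against the younger to find genes whose expression changes with age. No transgene, deletion or treatment is named for either group, and no sex, array model or batch is stated in the sources used here.

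TGF-beta ligands are secreted as latent dimers held by their own propeptides. Latent TGF-beta binding proteins such as Ltbp1 anchor these complexes in the matrix, and integrins or thrombospondin 1 (Thbs1) release the active ligand. The active ligand binds the type II receptor Tgfbr2, which recruits and phosphorylates the type I receptor Tgfbr1, and this kinase in turn phosphorylates Smad2 and Smad3, which enter the nucleus with Smad4. Tgfbr3, also called betaglycan, is a co-receptor that presents ligand, above all Tgfb2, and Smad7 is an inhibitor that the pathway itself induces. The pathway is known for its control of matrix production, vessel stability and immune restraint, and the choroid plexus contains epithelium, fenestrated vessels, stroma and macrophages that can make or receive these signals.

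None of the 10 genes differed between aged and young choroid plexus past the threshold (limma, Benjamini-Hochberg adjusted p under 0.05 over all probe sets). The smallest adjusted p among them was 0.666, and 0 of 10 had an unadjusted p under 0.05. Over all 25206 probe sets 0.0793% were called, 0.0595% as higher and 0.0198% as lower, and 7.77% had an unadjusted p under 0.05. Of the 10 genes 7 had a higher and 3 a lower mean in the aged tissue, but 5 and 5 without young replicate 1. Their median log2 difference, aged minus young, was 0.09, and that of all probe sets was 0.00. Tgfb2 was the 1 gene of the 10 whose 3 aged values did not overlap the 3 young values, which held for 13.6% of all probe sets, 6.69% with aged above young and 6.93% with aged below.

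The 6 arrays had log2 medians of 4.03 to 4.09 and pairwise correlations of 0.982 to 0.990. Young replicate 1 differed at the top of the scale: its highest value was 12.13, against 13.29 to 13.32 on the other arrays. The reason was not tested. With 3 arrays a group, their number limits the precision. The tissue label was checked against 12 markers of choroid plexus epithelium, whose mean lay between 10.98 and 11.03 on the aged arrays and between 10.78 and 11.08 on the young ones. As a guide to background, the 95th percentile over 1345 olfactory and vomeronasal receptor probe sets was 3.46. All 6 arrays lay above that guide for 9 of the 10 genes, Ltbp1 being the exception. RMA, the authors' normalization, compresses differences near background. Limma called 0 members of any of the 11 marker lists used here. Of those not set beside a result, T cell markers (median difference 0.34) and B and plasma cell markers (0.30) were mostly under the background guide. Of the 7 B and plasma cell markers 6 had higher and 1 a lower aged mean, and Ighm and Igkc, above the guide, differed by 2.48 and 2.21. The mean of that list was 3.70, 3.71 and 5.68 on aged replicates 1 to 3, against 3.23 to 3.45 on the young arrays. The other medians were 0.08 for the epithelium, -0.04 for ependyma, -0.12 for neurons, astrocytes and oligodendrocytes and -0.31 for the 2 measured red blood cell markers. The aged arrays differed in neural markers, whose mean was 7.01, 4.94 and 6.21 on aged replicates 1 to 3, against 6.18, 5.87 and 6.58 on the young ones. The neural median was -0.47 without aged replicate 1 and 0.59 without aged replicate 2, and the red blood cell median was -0.55 without young replicate 1 and -0.073 without young replicate 2. Limma called 0 of the 10 TGF-beta genes without aged replicate 1 or aged replicate 2, though the Tgfb3 difference was -0.53 without the first and the Thbs1 difference 0.16 without the second. The part of neural tissue in the 10 genes' values was not tested. At an unadjusted p under 0.05 there were 0 to 2 genes in each of these 6 lists.

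Tgfb2 and Ltbp1 had the smallest p-values among the 10 genes, and for each the 250 bases before the start of 1 transcript are shown for that reason, from RefSeq's promoter table of assembly GRCm38.p6, 5′ to 3′ on the gene's strand. In RefSeq's gene table both starts lie inside the gene's annotated span, so the windows do not mark its outermost end. Capitals mark CAGAC, the short core of Smad-binding elements, and its reverse complement GTCTG. For Tgfb2 the window is chr1:186705990-186706239 on the minus strand, and for Ltbp1 the first of the table's windows is chr17:75005279-75005528 on the plus strand.
Tgfb2: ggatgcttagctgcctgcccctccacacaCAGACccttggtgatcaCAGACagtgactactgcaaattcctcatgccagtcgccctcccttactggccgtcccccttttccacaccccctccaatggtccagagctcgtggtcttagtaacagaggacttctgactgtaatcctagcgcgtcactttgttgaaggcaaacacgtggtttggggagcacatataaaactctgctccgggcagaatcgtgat
Ltbp1: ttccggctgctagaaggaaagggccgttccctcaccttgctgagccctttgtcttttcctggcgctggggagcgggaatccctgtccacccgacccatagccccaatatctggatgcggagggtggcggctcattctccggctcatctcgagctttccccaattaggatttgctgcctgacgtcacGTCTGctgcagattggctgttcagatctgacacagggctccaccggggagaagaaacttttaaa
The Tgfb2 window held 2 copies of CAGAC, and the Ltbp1 window held 1 copy of GTCTG, with 2 more in the gene's other window. Over 6 of the 10 genes 8 windows were read, and 5 of them held the motif on either strand, as did 42.2% of the 32851 windows in the table. A match describes these letters and does not show a bound site.

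Among the ligands, Tgfb2 was lower in every aged sample than in any young one. It stood at 9.46, 9.24 and 9.24 in aged replicates 1 to 3, against 9.53, 9.55 and 9.56 in young replicates 1 to 3. The young values lay within 0.03 of each other, and aged replicate 1 lay close below them. The difference was -0.23 (SE 0.11, 95% interval -0.48 to 0.02), or 0.853 times the young level, and did not pass (limma adjusted p = 0.679). The young SD of 0.01 was far under the aged SD of 0.13, while limma's moderated error draws on the spread of all probe sets.

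Tgfb1, the isoform best known for immune regulation, stood at 4.92, 4.92 and 4.74 in the aged samples, against 4.23, 4.67 and 5.15 in the young ones. The aged values lay inside the young range, which spanned 0.92 where the aged range spanned 0.18. The difference was 0.18 (SE 0.22, 95% interval -0.32 to 0.68, limma adjusted p = 0.883). Without young replicate 1, the lowest array, it was -0.050, so its direction rested on that mouse. Of 12 macrophage markers 10 had higher aged means. Their list mean stood at 5.27, 4.98 and 5.67 on the aged arrays, against 4.37, 4.57 and 4.88 on the young ones. It ran in the same order as Tgfb1 among the young arrays and in the opposite order among the aged ones. Their part in the Tgfb1 values was not tested.

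Tgfb3, an isoform known for its role in palate and lung development, stood at 4.50, 3.90 and 3.71 in the aged samples, against 4.05, 4.19 and 4.77 in the young ones. Young replicate 3 was the highest array and aged replicate 3 the lowest, and the groups overlapped. The difference was -0.30 (SE 0.25, 95% interval -0.88 to 0.28, limma adjusted p = 0.815), the widest interval of the 10 genes, and it was -0.084 without young replicate 3. The mean of 10 stromal fibroblast markers was 5.60, 5.36 and 5.51 on the aged arrays, against 5.65, 5.83 and 6.41 on the young ones. It ran in the same order as Tgfb3 among the young arrays, highest on young replicate 3. Among the aged arrays it was lowest on replicate 2, where Tgfb3 was lowest on replicate 3. The part of fibroblasts in the Tgfb3 values was not tested. In whole tissue fewer cells of a type and less RNA per cell cannot be told apart.

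**Figure D1:**
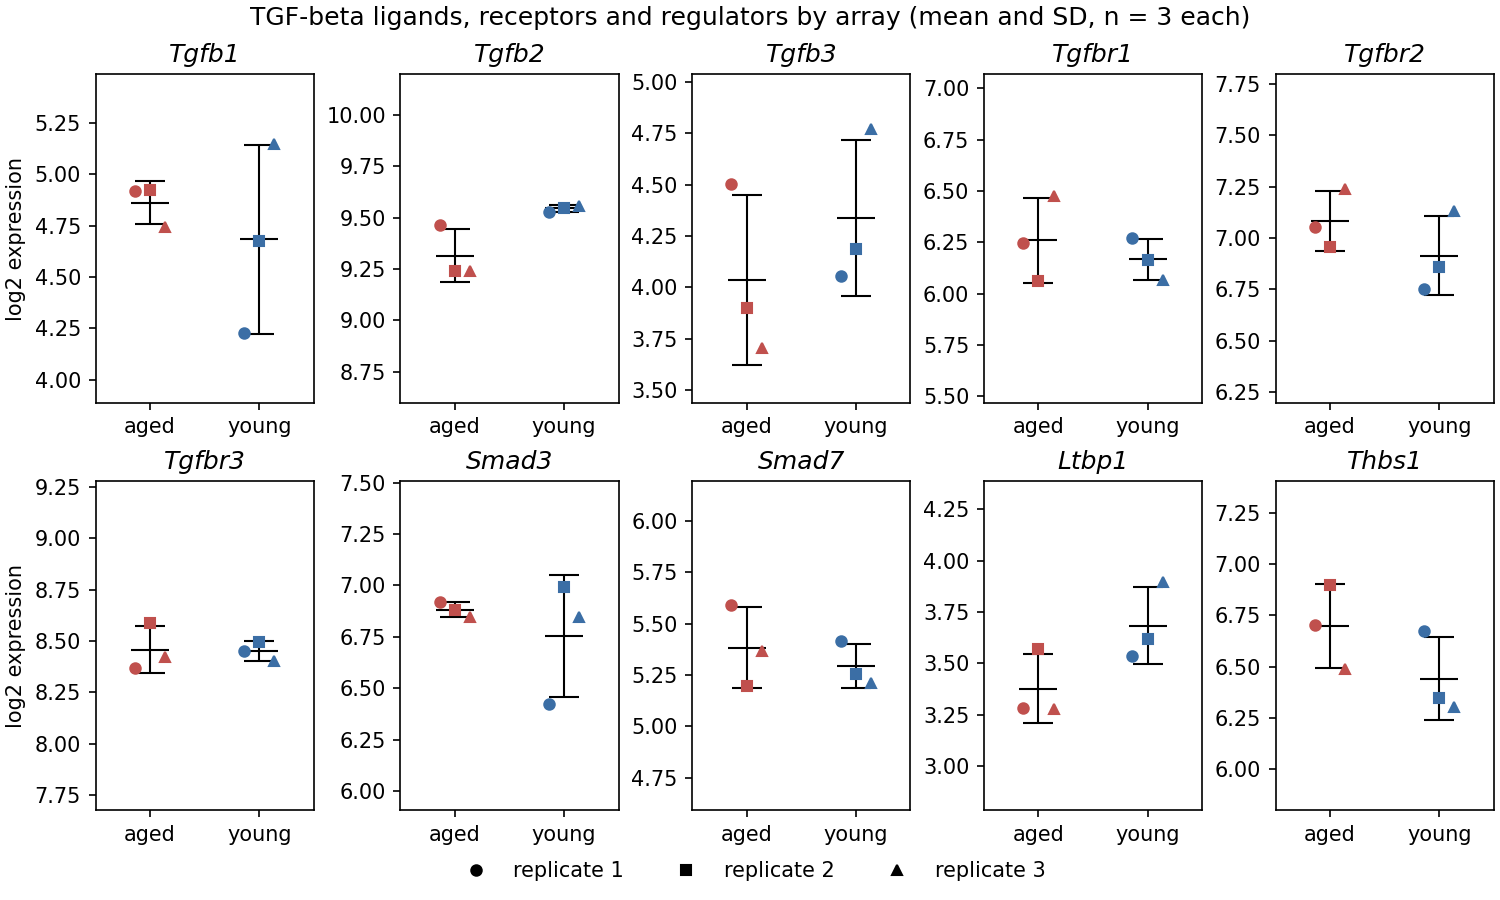
Log2 expression of each of the 10 genes (vertical axis, the same span of values in each panel) in 3 aged and 3 young mice, with each array as a point and the group mean and SD as bars. Tgfb2 is the panel in which the aged points, up to 9.46, all lie below the young points, from 9.53, and in the other panels the groups overlap.

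The ligand-binding receptors showed small differences. Tgfbr2, the type II receptor that binds ligand first, stood at 7.05, 6.96 and 7.24 in the aged samples, against 6.75, 6.86 and 7.13 in the young ones. Aged replicate 3 was highest and young replicate 1 lowest, with young replicate 3 above aged replicates 1 and 2. The difference was 0.17 (SE 0.14, 95% interval -0.15 to 0.49, limma adjusted p = 0.811), and it stayed above 0 without any single array, between 0.09 and 0.28.

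Tgfbr1, the type I receptor kinase, stood at 6.25, 6.06 and 6.47 in the aged samples, against 6.27, 6.16 and 6.07 in the young ones. The lowest and the highest array were both aged. The difference was 0.09 (SE 0.14, 95% interval -0.22 to 0.41, limma adjusted p = 0.904), and it was -0.013 without aged replicate 3.

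Tgfbr3, the co-receptor betaglycan, stood at 8.37, 8.59 and 8.42 in the aged samples, against 8.45, 8.50 and 8.40 in the young ones. The groups were interleaved, and the difference of 0.01 (SE 0.11) was the smallest of the 10 genes. Its 95% interval, -0.24 to 0.26, covers folds of 0.845 to 1.20 (limma adjusted p = 0.992), so larger changes lie outside it.

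The Smads overlapped between the ages. Smad3, the receptor-activated signal carrier, stood at 6.92, 6.88 and 6.84 in the aged samples, against 6.42, 6.99 and 6.85 in the young ones. The aged SD was 0.04 and the young SD 0.30, since young replicate 1 lay below every other array. The difference was 0.13 (SE 0.16, 95% interval -0.23 to 0.49, limma adjusted p = 0.883) and -0.036 without young replicate 1.

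Smad7, the inhibitory Smad and a direct target of the pathway, stood at 5.59, 5.20 and 5.37 in the aged samples, against 5.42, 5.25 and 5.21 in the young ones. Aged replicates held both the highest and the lowest value. The difference was 0.09 (SE 0.13, 95% interval -0.22 to 0.40, limma adjusted p = 0.906), and it was -0.012 without aged replicate 1.

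Of the ligand handlers, Ltbp1 was lower and Thbs1 higher in the aged mean. Ltbp1, which tethers latent TGF-beta to the matrix, stood at 3.28, 3.57 and 3.28 in the aged samples, against 3.54, 3.62 and 3.90 in the young ones. Aged replicates 1 and 3 lay under the background guide, and aged replicate 2 lay above young replicate 1, so the groups overlapped by that pair. The difference was -0.31 (SE 0.14, 95% interval -0.63 to 0.02, limma adjusted p = 0.666), and it was -0.20 without young replicate 3, the array with the highest fibroblast mean.

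Thbs1, a matrix glycoprotein of platelets and stressed tissue that can activate latent TGF-beta, stood at 6.71, 6.90 and 6.49 in the aged samples, against 6.67, 6.35 and 6.31 in the young ones. Young replicate 1 lay above aged replicate 3. The difference was 0.26 (SE 0.15, 95% interval -0.10 to 0.61), up to a fold of 1.53 at the upper bound, and did not pass (limma adjusted p = 0.747). Of 8 platelet and megakaryocyte markers 5 had means under the background guide, and 6 had higher and 2 lower aged means. All aged values lay above all young ones for 4 markers, as for 6.69% of all probe sets. The list mean was 3.29, 3.54 and 3.26 on the aged arrays, against 3.15, 3.21 and 3.26 on the young ones. It ran in the same order as Thbs1 among the aged arrays and in the opposite order among the young ones. Gp1bb differed by 0.61 (limma unadjusted p = 0.00772) and Gp1ba by 0.34 (limma unadjusted p = 0.0156), at levels near or under the background guide. Pf4, which resident macrophages also express, was lower by a log2 difference of -0.44 (limma unadjusted p = 0.0111). The part of platelets in the Thbs1 values was not tested.

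**Figure D2:**
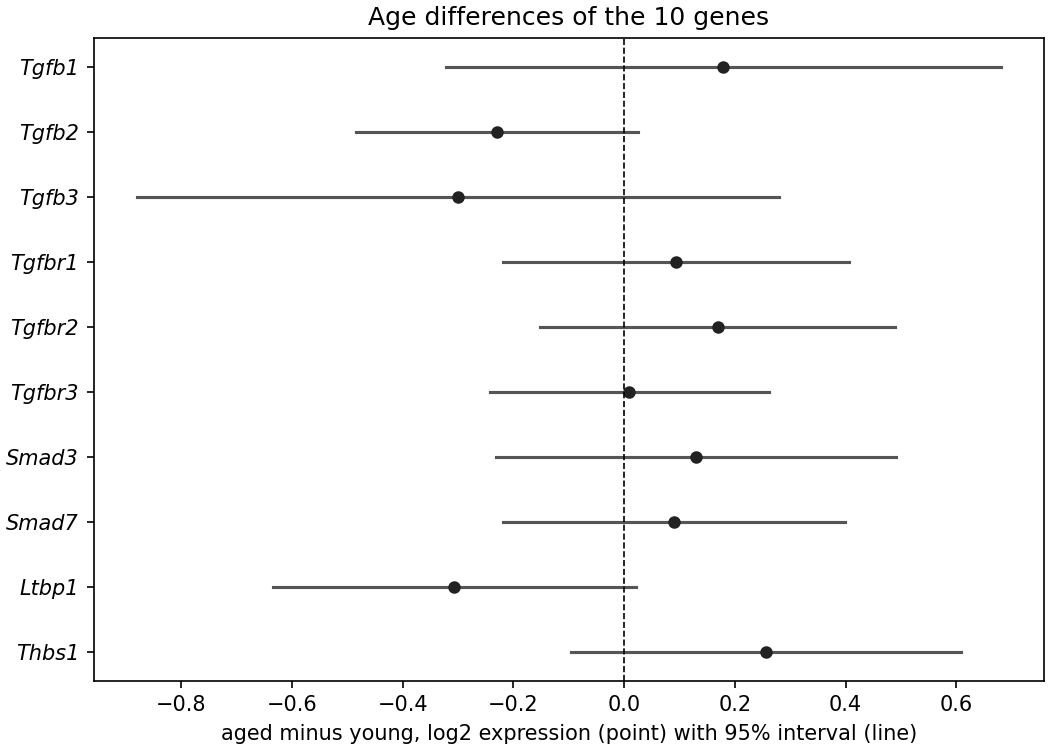
Log2 difference, aged minus young (horizontal axis), for each of the 10 genes, with the limma estimate as a point and its 95% interval as a line. All 10 intervals include 0, and those of Tgfb2, up to 0.02, and Ltbp1, up to 0.02, end closest to it.

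Whether the isoforms moved apart was asked through log2 ratios within an array, over 6 pairs of ligands or of receptors. The ratio of Tgfb1 to Tgfb3 was 0.48 higher in the aged samples, the largest shift of the 6 (exact permutation test, two-sided, p = 0.2, adjusted p = 0.7). The ratio of Tgfb1 to Tgfb2 was 0.41 higher (exact permutation p = 0.3, adjusted p = 0.7). The 3 receptor ratios shifted by 0.07 to 0.16, each less than the SD of that ratio among the young arrays, which lay between 0.09 and 0.29. All 6 pairs had an adjusted p of 0.7. With 3 arrays against 3 the smallest p this test can give is 0.1.

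Genes that store or activate latent TGF-beta, listed with relatives of such genes (Thbs2 and Ltbp2 among them), gave differences in both directions. Of 20 measured, limma called 0 over all probe sets, while at an unadjusted p under 0.05 there were 2 higher and 4 lower genes (over all probe sets 3.82% and 3.96%), and the median log2 difference was 0.00. Fbn1, the fibrillin that holds latent complexes in microfibrils, stood at 6.77, 6.61 and 6.62 in the aged samples, against 6.96, 7.15 and 6.92 in the young ones, a difference of -0.35 (SE 0.12, limma adjusted p = 0.521). All aged values lay below all young values, as they did for Itgb1, Lrrc32 and Thbs2.

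Itgb1, the beta1 integrin chain, differed by -0.37 (SE 0.13, limma adjusted p = 0.558), and the thrombospondin Thbs2 by -0.27 (SE 0.11). Lrrc32, which displays latent TGF-beta on the cell surface, stood at 3.51, 3.41 and 3.42 in the aged samples, against 3.77, 3.63 and 4.23 in the young ones, a difference of -0.43 (SE 0.16, limma adjusted p = 0.577) at levels close to the background guide, and -0.25 without young replicate 3.

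The 2 higher genes, chosen for mention after their values were seen, encode the chains of integrin alphavbeta8, an activator of latent TGF-beta. Itgb8 stood at 10.04, 10.33 and 10.52 in the aged samples, against 10.02, 10.02 and 9.80 in the young ones, a difference of 0.35 (SE 0.15, limma adjusted p = 0.634). Itgav, the alpha chain, stood at 8.77, 8.79 and 8.96 in the aged samples, against 8.57, 8.67 and 8.51 in the young ones, a difference of 0.26 (SE 0.11, limma adjusted p = 0.637). The aged values lay above the young ones for both chains, for Itgb8 by a margin of aged replicate 1 over young replicate 1 that is small beside the SDs. Without 1 array at a time the list held 0 or 1 higher genes at an unadjusted p under 0.05 and 1 to 4 lower ones.

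**Figure D3:**
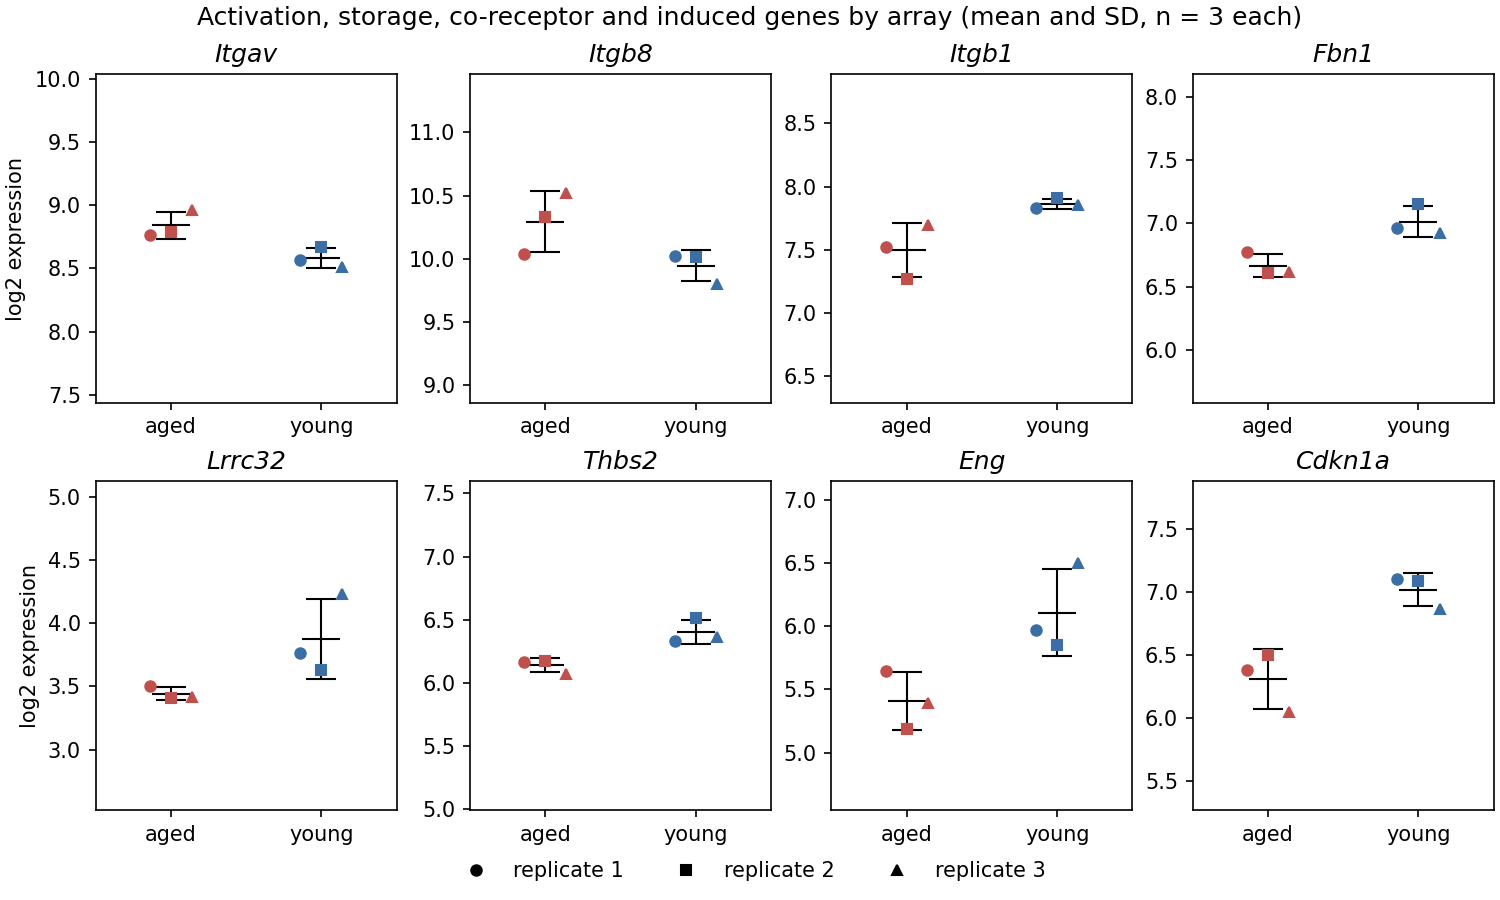
Log2 expression (vertical axis, the same span of values in each panel) of 8 other pathway genes in 3 aged and 3 young mice, with arrays as points and the mean and SD as bars. The aged points lie above the young ones for Itgav and Itgb8 and below them for Itgb1, Fbn1, Lrrc32, Thbs2, Eng and Cdkn1a; none of these differences passed the adjusted test.

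Among 11 co-receptors and related receptors limma called 0, at an unadjusted p under 0.05 there were 0 higher and 1 lower, and the median difference was -0.02. That gene was Eng (endoglin), the endothelial co-receptor for TGF-beta and BMP ligands, which stood at 5.65, 5.19 and 5.39 in the aged samples, against 5.97, 5.85 and 6.50 in the young ones. The difference was -0.70 (SE 0.20, limma adjusted p = 0.439), with no overlap. Acvrl1, its type I receptor partner in endothelium and named outside the rule, stood at 4.49 ± 0.02 in aged and 4.38 ± 0.14 in young samples (SD, n = 3 each). Bambi, a decoy receptor, differed by -0.35, Acvr1 by -0.18 and Acvr2a by -0.16. Of the 12 endothelial markers, Eng among them, 12 had lower aged means. For 9 of them all aged values lay below all young ones, as for 6.93% of all probe sets. The mean of the 12 markers lay between 4.80 and 4.87 on the aged arrays and between 5.18 and 5.55 on the young ones. Whether the Eng values go with endothelial content was not tested.

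Smads and their intracellular regulators had small differences, mostly lower. Of 21 measured, 18 had lower and 3 higher aged means (12721 and 12485 of all 25206 probe sets), with a median of -0.10, and 0 were called. At an unadjusted p under 0.05 stood 1 gene, Smurf1, a ubiquitin ligase that removes receptors and Smads, at 5.60 ± 0.04 in aged and 5.32 ± 0.17 in young samples (SD, n = 3 each, limma adjusted p = 0.634). Its relative Smurf2 was at 7.74 ± 0.08 in aged and 7.96 ± 0.12 in young samples. The deubiquitinase Usp15, which acts on the receptors, differed by -0.24 and Tgfb1i1 (Hic-5), a focal adhesion adaptor, by -0.28. Smad2 and Smad4, named outside the rule as partners of Smad3, differed by -0.10 and -0.01. The number of lower members ranged from 15 to 18 when 1 array was left out.

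Extracellular antagonists of TGF-beta or of related ligands differed in both directions. Of 9 measured, 0 were called, and at an unadjusted p under 0.05 there was 1 in each direction, with a median of -0.03. A2m, alpha-2-macroglobulin, which traps proteases and growth factors, stood at 9.38, 10.27 and 10.52 in the aged samples, against 9.58, 9.22 and 9.0 in the young ones, a difference of 0.79 (SE 0.29, limma adjusted p = 0.572). Aged replicate 1 lay below young replicate 1. Fmod, the matrix proteoglycan fibromodulin, stood at 7.24, 6.82 and 6.56 in the aged samples, against 7.20, 7.42 and 8.53 in the young ones, a difference of -0.84 (SE 0.34, limma adjusted p = 0.606). Young replicate 3, with the highest fibroblast mean, was also the highest for Fmod, whose difference without it was -0.44. Bgn (biglycan) differed by 0.27, and Lefty2 lay under the background guide in both groups.

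Related ligands gave 1 gene at an unadjusted p under 0.05 among 8 measured, with a median of -0.02 and 0 called. Gdf3, a ligand of early development, differed by 0.47 (SE 0.10, limma adjusted p = 0.278), but all its values, 3.13 to 3.19 in aged and 2.67 to 2.74 in young samples, lay under the background guide. Gdf11 differed by -0.22, the inhibin chain Inha by -0.20 and Gdf15, a stress-induced cytokine, by 0.15.

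Of the other thrombospondin genes and receptors, 6 in all, 2 had higher and 4 lower aged means, with a median of -0.10. Limma called 0, and at an unadjusted p under 0.05 there were 1 higher and 2 lower genes. Thbs2, 1 of the lower genes, was also counted in the storage and activation list. Thbs3 stood at 4.75, 4.58 and 4.40 in the aged samples, against 4.82, 5.07 and 5.18 in the young ones, a difference of -0.45 (SE 0.14, limma adjusted p = 0.502). Its groups did not overlap. Thbs4, the higher gene, stood at 3.59, 3.48 and 3.69 in the aged samples, against 3.36, 3.39 and 3.23 in the young ones, near background. Its difference was 0.26 with no overlap, and Comp differed by -0.15.

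Genes known to be induced by TGF-beta were mostly lower in the aged tissue without any passing the test. Of 22 measured, 18 had lower and 4 higher aged means (12721 and 12485 of all 25206 probe sets). At an unadjusted p under 0.05 there were 5 lower and 1 higher (over all probe sets 3.96% and 3.82%), and the median difference was -0.26. The list's mean lay between 5.07 and 5.18 on the aged arrays and between 5.26 and 5.88 on the young ones, with young replicate 3 the highest.

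Cdkn1a, the cell cycle inhibitor p21 that other stimuli also induce, stood at 6.38, 6.50 and 6.05 in the aged samples, against 7.10, 7.08 and 6.87 in the young ones. The aged values all lay below the young ones, by a difference of -0.71 (SE 0.15, limma adjusted p = 0.271). Bhlhe40, a transcription factor of the clock and stress responses, was the 1 higher gene at that level, at 8.0, 8.40 and 8.47 in the aged samples, against 7.74, 7.44 and 7.86 in the young ones (difference 0.61, SE 0.17, limma adjusted p = 0.435).

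The collagen chain Col1a1 stood at 5.48, 5.18 and 5.17 in the aged samples, against 5.68, 6.10 and 7.53 in the young ones, a difference of -1.16 (SE 0.42, limma adjusted p = 0.558), and Col1a2 differed by -0.66. Young replicate 3 was the highest array for both, and without it the differences were -0.62 and -0.46. The textbook target Ccn2, a matricellular protein named outside the rule, differed by -0.56, or -0.15 without young replicate 3. It reached 6.26 on young replicate 3, while no other array exceeded 5.02.

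Of the 22 induced genes 5 are also in the fibroblast or mural marker lists used here (Col1a1, Col1a2, Col3a1, Acta2 and Tagln). Without them 13 of 17 were lower and the median was -0.21, though these 17 may hold other genes of such cells. Without young replicate 3 it was 16 of 22, with a median of -0.20. Over the alternatives the median ran from -0.41, among the brighter probe sets, to -0.20. Fibroblast markers (10 genes) and mural markers (10 genes) had 9 lower aged means each, with list means of 5.36 to 5.60 and 4.43 to 4.60 on the aged arrays, against 5.65 to 6.41 and 4.72 to 5.28 on the young ones. Their part in the induced genes' values was not tested.

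**Figure D4:**
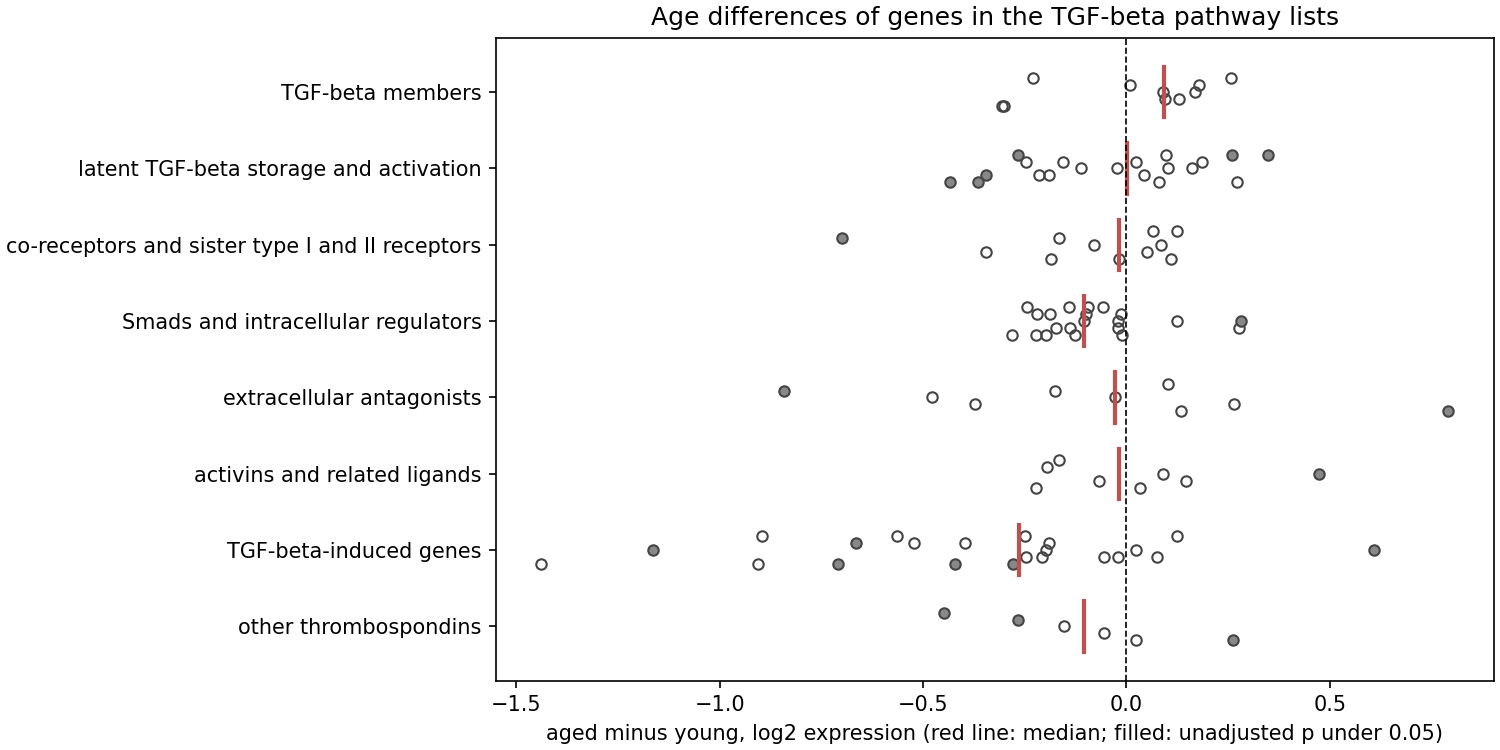
Log2 difference, aged minus young (horizontal axis), of each measured gene in the 10 TGF-beta genes and 7 further pathway lists, with red lines at the list medians and filled points at an unadjusted limma p under 0.05. The induced genes have the lowest median, -0.26, and no point passed the adjusted test.

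**Figure D5:**
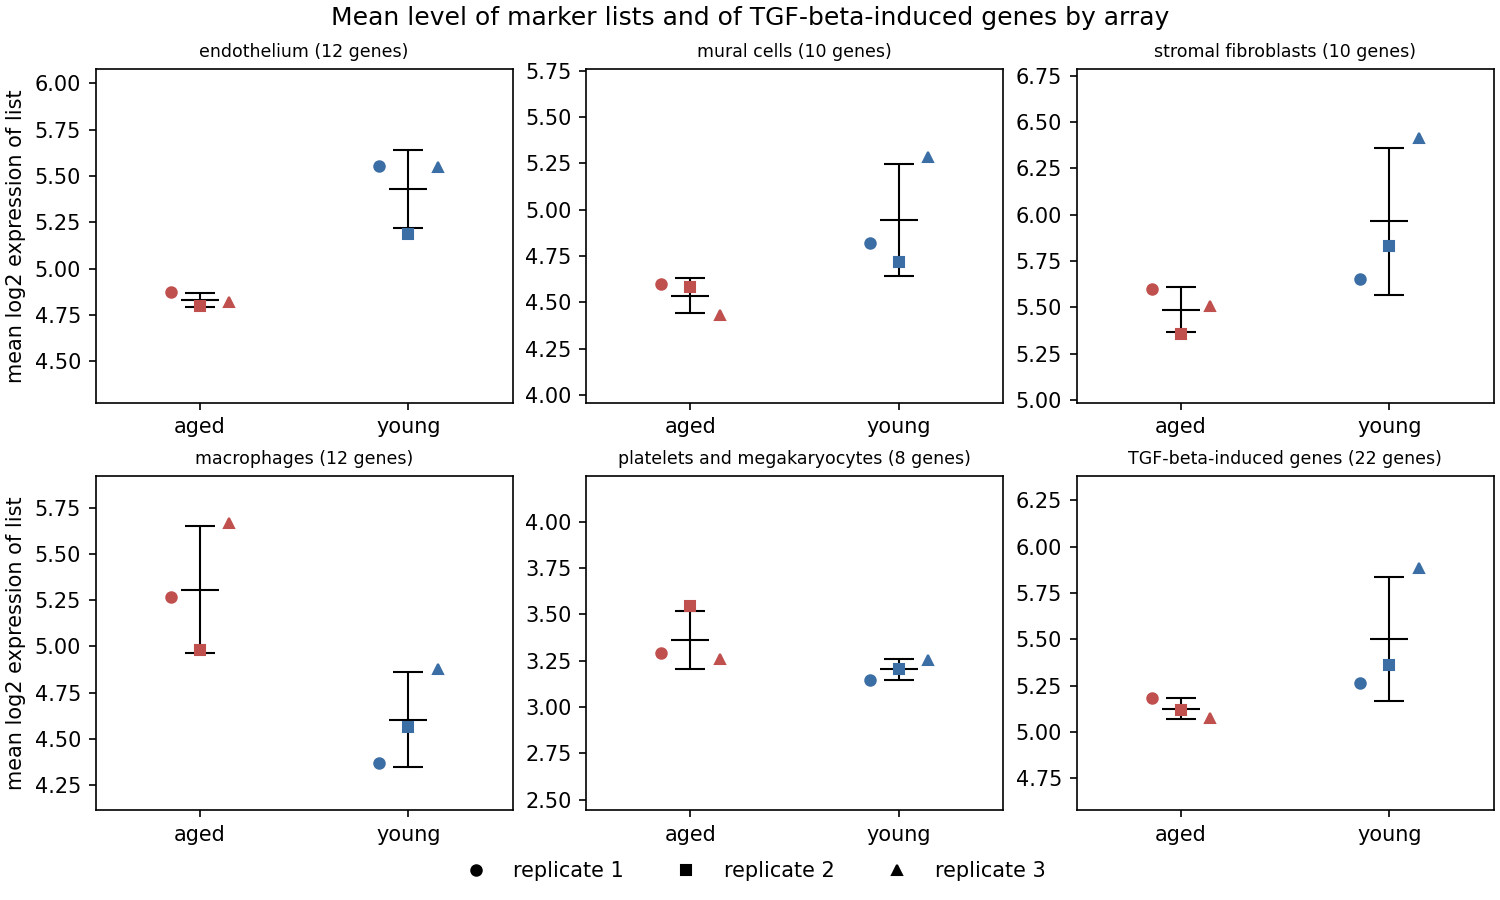
Mean log2 expression (vertical axis, the same span of values in each panel) of 5 marker lists and of the TGF-beta-induced genes on 3 aged and 3 young arrays, with bars for the mean and SD. The endothelial, mural, fibroblast and induced means are lower on every aged array, macrophage means are higher, and young replicate 3 is highest in the mural, fibroblast and induced panels.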

How the data were processed

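Total RNA of choroid plexus from 6 mice was hybridised to expression arrays, per the labels. The authors deposited log2 values per Brainarray probe set, and RMA and limma 3.14.4 are named in the submitters' processing notes. Their deposited table also holds a signed fold change and a t statistic (score) and p-values with q-values, which were not used here. A second deposited table holds the same log2 values, with a largest difference of 0.005. The genome build is not given in the sources used here.

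All 25206 probe sets were fitted with limma 3.58.1 (lmFit, eBayes) in R 4.3.3, with 1 term for age, no covariate and no filter, and p-values were adjusted by Benjamini-Hochberg over all of them. Each difference is the aged mean less the young mean of log2 values, with a 95% interval. The fit was also run on simulated data to see whether it returned planted shifts. Those shifts were larger than any difference among the 10 genes, so the run does not show how small a difference could be found. Symbols were updated through Entrez identifiers to a RefSeq gene table of GRCm38.p6 (23740 matched), and 205 of 209 list entries matched. The 10 genes, 7 pathway lists and 11 marker lists were chosen with earlier results of these data known. Named genes are all 10 and, in each pathway list with no called gene, up to 4 with the smallest p; others are said to be outside that rule, and 1 further target is not reported here. Replicate numbers are shared between the groups. Deviations of same-numbered arrays from their group means correlated at -0.02, 0.15 and -0.05, and those of differently numbered arrays at up to 0.15. With so few arrays these values cannot decide whether the numbers pair the mice. The main fit used no pairing. Alternatives were filters on dim probe sets (2 of them), a second quantile normalization, centring on medians, the rounded table, eBayes with a trend and robust settings, weights for arrays, the replicate block and leaving out each array. Results for the induced list without marker genes were added after seeing the data.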

Additional observations from a re-analysis of the deposited data

How the results depend on the processing

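None of the 10 genes passed under any alternative that was run. Tgfb2, Tgfb3, Tgfbr2, Ltbp1 and Thbs1 kept their direction throughout, with Tgfb2 between -0.30 and -0.19 (limma adjusted p 0.509 to 0.883), Tgfb3 between -0.53 and -0.084, Ltbp1 between -0.40 and -0.20 and Thbs1 between 0.16 and 0.37. The filters on dim probe sets removed Ltbp1. Without 1 array at a time Tgfb1 ranged from -0.050 to 0.41, Tgfbr1 from -0.013 to 0.19, Tgfbr3 from -0.055 to 0.055, Smad3 from -0.036 to 0.25 and Smad7 from -0.012 to 0.18, and with array weights Tgfbr3 was at -0.020. The cause was not tested. The 15 higher and 5 lower genes over all probe sets ranged from 0 to 27 and from 0 to 25 without 1 array, where at least 739 higher and 746 lower probe sets had an unadjusted p under 0.05. Both were 0 without young replicate 2 or aged replicate 2. Lower genes numbered 8 with quantile normalization, with median centring and with a mean above the median, 12 above the array median on at least 3 arrays, 11 with a variance trend and 1 with the replicate block. With the replicate block 14 genes were higher, and Tgfb2 and Ltbp1 had adjusted p of 0.772 and 0.732; it changed no call among the 10 genes.

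With both filters on dim probe sets the median moved to 0.080 for latent storage and activation, -0.20 for activins and related ligands, -0.27 for the other thrombospondins, -0.41 for the induced genes, -0.12 for the extracellular antagonists and 2.35 for B and plasma cell markers, over fewer genes. Without 1 array the first ranged from -0.093 to 0.076. The number of arrays and the dimness of Ltbp1 and Gdf3 limit these values.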
